A study of Mus musculus with 9 samples.

Results

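The interleukin 6 family was described through 10 genes in 9 mouse tumours: the ligand genes Il6, Il11, Lif and Osm, the receptor genes Il6ra, Il6st, Lifr and Osmr, the transcription factor gene Stat3 and the feedback inhibitor gene Socs3. They were taken by symbol from the 42454 gene names of the count tables, and each symbol matched 1 row. The tumours had formed from implanted MC38 cells, a mouse colorectal carcinoma line, in C57BL/6J hosts, and were collected on day 21. In 4 tumours the cells carried a vector (Vec, genotype WT in the labels), and in 5 they lacked CD43 (CD43-KO). Both groups thus shared the parental line and the host strain, and CD43 was deleted in the implanted cells, not in the host. The labels do not state whether the knockout line was 1 clone, or whether each tumour came from a separate mouse, so p-values measure the spread between these tumours. Replicates are numbered in order of deposition, and a number links no tumours across groups.

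Cytokines of this family signal through receptor complexes that contain gp130, the product of Il6st. IL-6 and IL-11 first bind their own alpha receptors, whereas LIF and oncostatin M join gp130 to the LIF receptor or the oncostatin M receptor. The complex activates JAK kinases, which phosphorylate STAT3, and STAT3 then induces Socs3, whose product blocks gp130 and its kinases. In tumours, myeloid cells, fibroblasts and carcinoma cells can all make or answer these ligands.

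The promoter stretches that match known response elements are shown first, because Socs3 answers STAT3 and the ligand genes answer inflammatory signals. RefSeq promoters (GRCm38.p6, 250 bases before to 50 after a start) were given for 9 of the 10 genes, as 11 windows. The motifs searched, on both strands, were the STAT element TTCNNNGAA, the AP-1 element TGANTCA and the NF-kB decamer. They stood in 8.30%, 7.81% and 1.63% of the 32851 promoter windows of all genes. Matches are in capitals, each stretch reads 5′ to 3′ on the strand of its gene, and a match is a run of letters, not a shown binding site.
Socs3, STAT element, chr11:117969487-117969545, minus strand: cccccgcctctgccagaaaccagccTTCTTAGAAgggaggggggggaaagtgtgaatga
Il6, NF-kB element, chr5:30013045-30013104, plus strand: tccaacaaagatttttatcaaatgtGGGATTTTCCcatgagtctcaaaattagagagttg
Il6, AP-1 element, chr5:30012864-30012896, plus strand: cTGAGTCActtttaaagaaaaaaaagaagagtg
Il11, AP-1 element, chr7:4778208-4778264, minus strand: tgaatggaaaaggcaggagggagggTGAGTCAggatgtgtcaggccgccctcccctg
Lif, AP-1 element, chr11:4257318-4257371, plus strand: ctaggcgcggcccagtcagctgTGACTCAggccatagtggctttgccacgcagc
The STAT letters were matched in Socs3, and AP-1 letters in each of the 3 ligand genes with a window. Osmr also had an AP-1 match, TGATTCA, which began 3 bases after the RefSeq start. The windows of Il6ra, Il6st, Lifr and Stat3, and the window of the other Il11 start, held no match. The Socs3, Il11 and Osmr matches lie inside the gene spans given below, whose starts differ from these RefSeq starts. The motifs were chosen after the promoters had been seen.

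Depth and the state of the libraries bear on every value below. Total counts were between 60751738 and 72114385 in Vec and between 44814061 and 62194418 in CD43-KO libraries, so 1 count was worth between 0.0141 and 0.0232 CPM (counts scaled to a common library size with TMM factors). Spn, which encodes CD43, was between 41.0 and 53.8 CPM in Vec and between 6.81 and 33.6 CPM in CD43-KO tumours, below every Vec tumour but present in all. CD43-KO replicate 3 stood apart: summed skeletal muscle markers reached 1075 CPM against 70.1 to 114 CPM in the other 8 tumours, and fat cell markers reached 744 CPM. In the 4 other CD43-KO tumours fat cell markers summed to between 37.5 and 59.0 CPM, below every Vec tumour (63.3 to 91.0 CPM). Epithelial markers were scarce in both groups. Cdx2 was at 0 in all 9 tumours, Krt8 was at most 0.149 CPM, Epcam lay between 0.220 and 1.41 CPM, and Cdh1 (6.42 to 14.8 CPM) made up most of the summed 10 markers. That sum was between 9.16 and 15.8 CPM in Vec and between 8.21 and 16.2 CPM in CD43-KO tumours. The 5 leukocyte markers, all with a log2 fold change above 0, summed to between 346 and 457 CPM in Vec, and to 615, 738, 1031, 351 and 448 CPM in CD43-KO replicates 1 to 5.

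All 10 genes had a higher mean in CD43-KO than in Vec tumours, and none passed the test over all names. For Lif and Osmr, the lowest CD43-KO tumour exceeded the highest Vec tumour. Osm, Lifr and Socs3 were higher than every Vec tumour in 4 of 5 CD43-KO tumours each, and Il6, Il6ra, Il6st and Stat3 overlapped widely. The log2 fold change (CD43-KO over Vec) ran from 0.12 for Il6ra to 0.87 for Osm, with a median of 0.36 against 0.03 over the 18243 names tested. A log2 fold change above 0 was met in 10 of 10 genes, against 54.0% of all names. At an unadjusted edgeR p under 0.05 there were 5 of 10 genes, all higher, against 15.4% of names in either direction and 7.75% in the higher direction. Groups without overlap were met in 2 of 10 genes, both higher, against 2.08% of names higher and 3.50% lower. After Benjamini-Hochberg adjustment, edgeR called 0 of the 10 genes and 0% of names. DESeq2 called Lif alone among the 10 (3.35% of names), and limma voom with sample quality weights also called Lif alone (3.08% of names). Without Vec replicate 4 the count at an unadjusted p under 0.05 was 3, and without Vec replicate 3 the median was 0.57. The genes were put together with earlier results of these data known, and several belong to 1 signalling chain, so these counts describe the set. In whole tumours, a shift in the number of cells that make a transcript and a shift in its level per cell cannot be told apart.

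**Figure D1:**
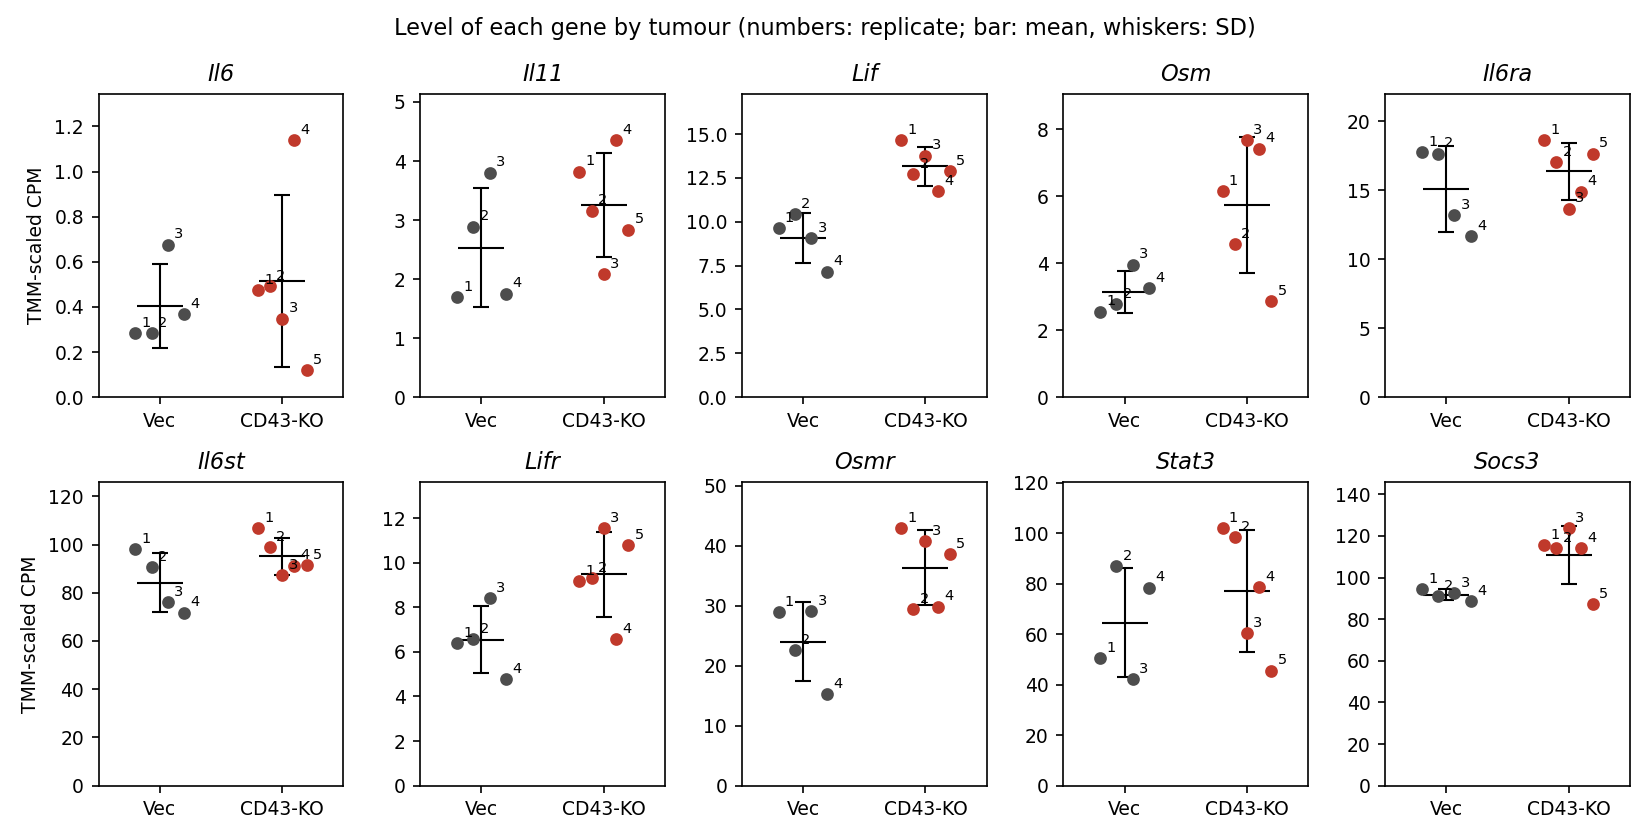
Level of each of the 10 genes in TMM-scaled CPM (vertical axes, from 0) in 4 Vec and 5 CD43-KO tumours; points are tumours with their replicate number, bars are means and whiskers SDs. Lif and Osmr are the panels without overlap, and CD43-KO replicate 5 lies below every Vec tumour for Il6 and Socs3, within the Vec range for Il11, Osm, Il6ra, Il6st and Stat3, and above it for Lif, Lifr and Osmr.

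Among all 10 genes, Lif had the smallest p. LIF is a growth and differentiation factor that keeps mouse stem cells undifferentiated and that tumours and stroma can secrete. Its gene (chromosome 11, 4257557 to 4272514, plus strand, GRCm38) was at 9.63, 10.4, 9.07 and 7.15 CPM in Vec replicates 1 to 4. In CD43-KO replicates 1 to 5 it was at 14.7, 12.7, 13.8, 11.7 and 12.9 CPM. The lowest CD43-KO tumour thus lay above the highest Vec tumour. Means were 9.07 ± 1.40 CPM (SD, n = 4) and 13.2 ± 1.11 CPM (SD, n = 5), and the log2 fold change was 0.54 ± 0.13 (SE). It had an edgeR adjusted p of 0.191, a DESeq2 adjusted p of 0.0108 and a limma voom adjusted p of 0.0491. With CD43-KO replicate 3 (high in muscle and fat cell markers) left out, the log2 fold change was 0.51. Leukocyte marker sums of CD43-KO replicates 4 and 5 lay inside the Vec range, and Lif in those 2 tumours lay above every Vec tumour. In the same 2 tumours the fibroblast and fat cell sums lay below every Vec tumour. The part of cell content in the Lif difference was not tested.

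Osm had the largest fold change of the 10 genes and a wide spread. Oncostatin M is made mainly by myeloid cells and activated T cells and acts on stromal and epithelial cells. The gene lies 16.5 kb from Lif on the same strand (chromosome 11, 4236420 to 4241026). It was at 2.56, 2.79, 3.96 and 3.25 CPM in Vec replicates 1 to 4 and at 6.14, 4.58, 7.69, 7.42 and 2.87 CPM in CD43-KO replicates 1 to 5. Replicates 1 to 4 of CD43-KO lay above every Vec tumour, and replicate 5 lay within the Vec range. Means were 3.14 ± 0.62 CPM (SD, n = 4) and 5.74 ± 2.02 CPM (SD, n = 5), with a log2 fold change of 0.87 ± 0.29 (SE) and an edgeR adjusted p of 0.245. Summed macrophage markers (11 of 11 with a log2 fold change above 0) were between 2733 and 4511 CPM in Vec, and T cell markers (7 of 7 tested) between 26.5 and 42.7 CPM. In CD43-KO replicates 1 to 3 the macrophage sum was 5138, 6199 and 9952 CPM and the T cell sum 59.4, 97.9 and 136 CPM, above every Vec tumour. In replicate 4 these sums were 2584 and 27.2 CPM, and in replicate 5 they were 3948 and 35.9 CPM. The neutrophil markers were mixed, with 4 of 7 tested above 0, and their sum, mostly S100a8, S100a9 and Mmp9, overlapped at 27.5 to 107 against 33.8 to 119 CPM. Csf3r, the receptor for granulocyte colony-stimulating factor, and Trem1, a myeloid receptor, both named after their values were seen, did not overlap between the groups and were higher in CD43-KO (4.15 ± 0.55 against 11.4 ± 6.08 CPM, and 5.80 ± 0.47 against 8.71 ± 0.88 CPM). In CD43-KO replicate 4 Csf3r was at 8.38 CPM, and the neutrophil receptor gene Cxcr2 at 2.30 CPM against at most 1.11 CPM in Vec. Cxcr2 overlapped between the groups, at 0.304 to 2.35 CPM in CD43-KO tumours. In the same replicate 4, S100a8 (15.9 CPM) and S100a9 (22.3 CPM) lay inside the Vec range, and Mmp9 (13.4 CPM) lay below every Vec tumour. The leukocyte sum moved with this result in part: it was above every Vec tumour in CD43-KO replicates 1 to 3, but replicate 4 (351 CPM) had the second highest Osm with a sum inside the Vec range. The part of these cells in the Osm difference was not tested. Without CD43-KO replicate 3 the log2 fold change was 0.74, and without CD43-KO replicate 5 it was 1.04.

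Il11 and Il6 overlapped between the groups. IL-11 is a stromal and tumour cytokine linked to gut repair and fibrosis, and its gene lies on chromosome 7 (4772373 to 4782859, minus strand). Il11 was at 1.69, 2.89, 3.80 and 1.76 CPM in Vec replicates 1 to 4 and at 3.82, 3.16, 2.09, 4.36 and 2.84 CPM in CD43-KO replicates 1 to 5. Only CD43-KO replicates 1 and 4 lay above every Vec tumour. Its log2 fold change was 0.36 ± 0.30 (SE), with an edgeR adjusted p of 0.579, and it ran from 0.20 without Vec replicate 1 to 0.61 without Vec replicate 3.

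Il6, the founding cytokine of the family (chromosome 5, 30013114 to 30019981, plus strand), was the scarcest of the 10 genes. It had 18, 19, 48 and 20 counts in Vec replicates 1 to 4, and 31, 32, 15, 67 and 7 counts in CD43-KO replicates 1 to 5. On the CPM scale these were 0.284, 0.283, 0.676 and 0.370 in Vec, and 0.474, 0.493, 0.348, 1.14 and 0.118 in CD43-KO tumours. The highest and the lowest of the 9 tumours were thus both CD43-KO, replicates 4 and 5. The log2 fold change was 0.35 ± 0.57 (SE, edgeR adjusted p = 0.783), and it turned to -0.17 without CD43-KO replicate 4. No difference was detectable against this spread.

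The receptor genes split into Osmr and Lifr, with larger fold changes, and Il6st and Il6ra, with smaller ones. Osmr encodes the subunit that pairs with gp130 to bind oncostatin M. Its gene (chromosome 15, 6813577 to 6874969, minus strand) was at 28.9, 22.6, 29.2 and 15.2 CPM in Vec replicates 1 to 4. In CD43-KO replicates 1 to 5 it was at 42.9, 29.5, 40.8, 29.9 and 38.7 CPM. The groups did not overlap, but the gap was narrow, from 29.17 CPM in the highest Vec tumour to 29.49 CPM in the lowest CD43-KO tumour. Means were 24.0 ± 6.58 CPM (SD, n = 4) and 36.3 ± 6.28 CPM (SD, n = 5), with a log2 fold change of 0.60 ± 0.20 (SE) and an edgeR adjusted p of 0.246. It was 0.55 without CD43-KO replicate 3 and 0.43 without Vec replicate 4, the lowest tumour. Summed fibroblast markers, 11 genes of a cell type that responds to oncostatin M, were between 2995 and 4302 CPM in Vec and between 2091 and 5744 CPM in CD43-KO tumours. They were below every Vec tumour in CD43-KO replicates 4 and 5 (2351 and 2091 CPM), where Osmr was above every Vec tumour. The list was mixed, with 8 of 11 above 0 and a median of 0.43, and its sum was carried by collagens (Col3a1 at 2167 ± 638 against 1400.3 ± 544 CPM). Pdgfra, a fibroblast receptor gene, was at 36.8 and 34.2 CPM in those 2 tumours, inside the Vec range of 27.5 to 41.0 CPM. The part of fibroblasts in the Osmr difference was not tested.

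Lifr, which encodes the LIF receptor, lies 216 kb from Osmr on chromosome 15 (7090614 to 7197489), on the opposite strand. It was at 6.39, 6.58, 8.42 and 4.77 CPM in Vec replicates 1 to 4 and at 9.17, 9.31, 11.5, 6.57 and 10.8 CPM in CD43-KO replicates 1 to 5. Of the knockout tumours, replicate 4 alone lay within the Vec range, and the others lay above it. The means were 6.54 ± 1.495 CPM (SD, n = 4) and 9.48 ± 1.91 CPM (SD, n = 5). Its log2 fold change was 0.53 ± 0.20 (SE), with an edgeR adjusted p of 0.276, and it was 0.45 without CD43-KO replicate 3 and 0.40 without Vec replicate 4.

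Il6st, which encodes the shared subunit gp130 (chromosome 13, 112464070 to 112510086, plus strand), overlapped between the groups. Its values were 98.2, 90.7, 76.0 and 71.8 CPM in Vec replicates 1 to 4 and 106.7, 99.0, 87.4, 91.3 and 91.6 CPM in CD43-KO replicates 1 to 5. Only CD43-KO replicates 1 and 2 exceeded the highest Vec tumour. The log2 fold change of Il6st was 0.18 ± 0.11 (SE, edgeR adjusted p = 0.447), or 0.10 without Vec replicate 4. Il6ra, which encodes the IL-6 receptor alpha chain (chromosome 3, 89864059 to 89913196, minus strand), was at 17.7, 17.7, 13.2 and 11.6 CPM in Vec and at 18.6, 17.02, 13.7, 14.9 and 17.6 CPM in CD43-KO tumours. Only CD43-KO replicate 1 lay above every Vec tumour. Its log2 fold change was 0.12 ± 0.15 (SE, edgeR adjusted p = 0.721). Without Vec replicate 4 it was 0.0098, and without Vec replicate 2 it was 0.21. An antisense gene, Gm42809, overlaps 281 bases of Il6ra, and its reads cannot be told apart without a stated strand setting.

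Downstream, Stat3 varied as much within the groups as between them. STAT3 carries the signal of every gp130 complex to the nucleus. Stat3 (chromosome 11, 100885098 to 100939540, minus strand) was at 50.5, 86.9, 42.3 and 78.4 CPM in Vec replicates 1 to 4. In CD43-KO replicates 1 to 5 it was at 101.9, 98.4, 60.4, 78.7 and 45.5 CPM. Both groups held tumours near 45 CPM and tumours near 80 CPM or more. Means were 64.5 ± 21.5 CPM (SD, n = 4) and 77.0 ± 24.2 CPM (SD, n = 5), and the log2 fold change was 0.25 ± 0.28 (SE, edgeR adjusted p = 0.674). It was 0.087 without Vec replicate 3 and 0.43 without Vec replicate 2. The CV of Stat3 was 33.2% in Vec and 31.5% in CD43-KO tumours, against 14.7% and 8.09% for Il6st. Stat3 shares 72 bases with Stat5a on the opposite strand. These counts are of transcripts and do not show how much STAT3 was phosphorylated.

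Socs3, the STAT3-induced gene with the TTCTTAGAA stretch shown above (chromosome 11, 117966079 to 117970047, minus strand), was nearly constant in Vec. Its values were 94.6, 91.2, 92.7 and 88.8 CPM in Vec replicates 1 to 4, a CV of 2.68%. In CD43-KO replicates 1 to 5 it was at 115.7, 114.3, 123.7, 114.1 and 87.2 CPM. Replicates 1 to 4 lay above every Vec tumour and replicate 5 lay below every one. Means were 91.8 ± 2.46 CPM (SD, n = 4) and 111.0 ± 13.9 CPM (SD, n = 5), and the log2 fold change was 0.27 ± 0.10 (SE, edgeR adjusted p = 0.273). Socs3 and Osm thus had the same 4 tumours above the Vec range. In CD43-KO replicate 4, both were high and the leukocyte sum lay inside the Vec range. The part of leukocytes, or of any kind of them, in the Socs3 difference was not tested.

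**Figure D2:**
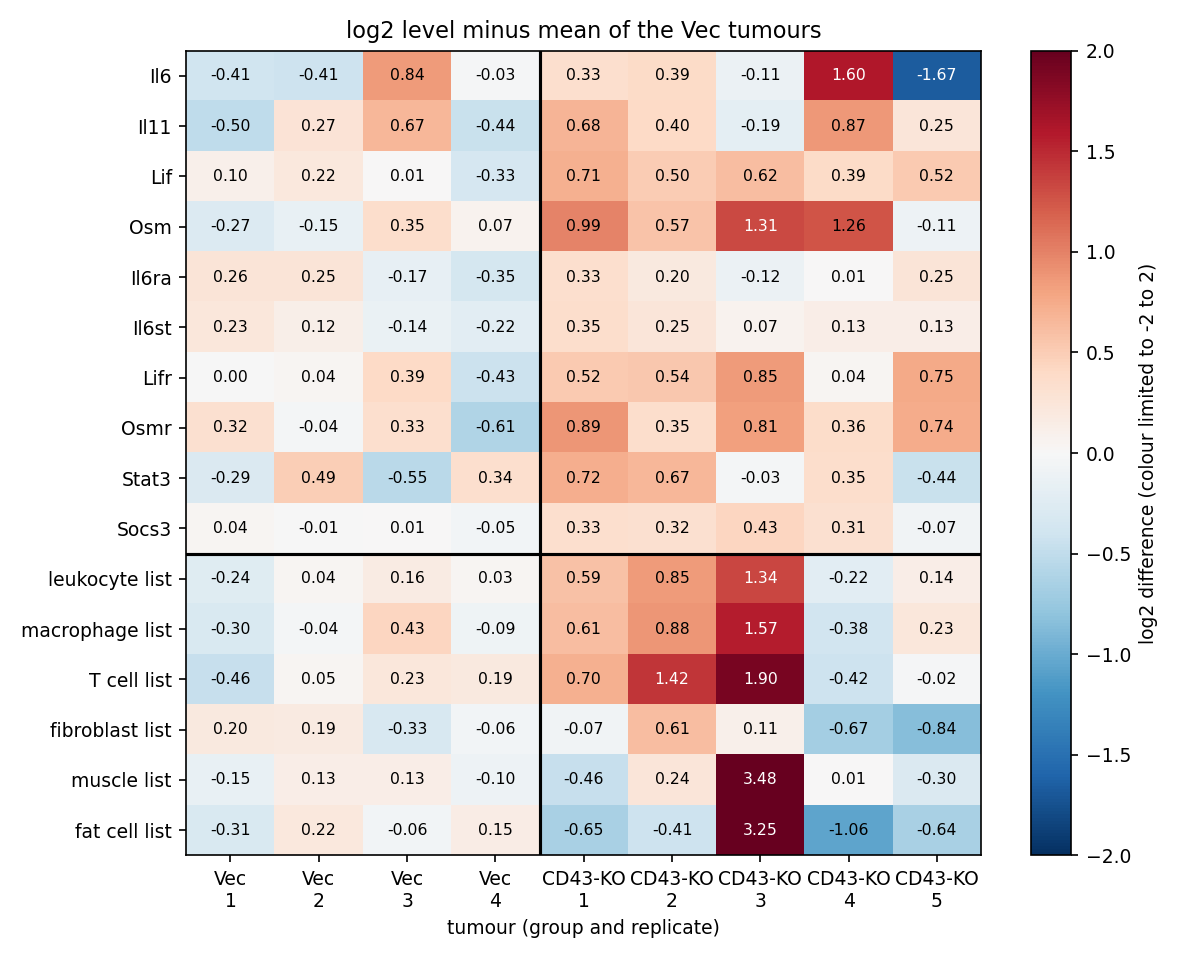
Colours and numbers give the log2 level in each tumour (columns) minus the mean log2 level of the 4 Vec tumours, for the 10 genes and, under the line, for the summed CPM of 6 marker lists. Lif is at 0.39 or more in all 5 CD43-KO tumours. The leukocyte list is above 0.5 only in CD43-KO replicates 1 to 3, and muscle and fat cell lists are highest in replicate 3 (3.48 and 3.25). The fat cell list is between -1.06 and -0.41 in the 4 other CD43-KO tumours.

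The other tools gave fold changes of similar size, with limma voom higher for Il11 (0.50 log2) and Stat3 (0.34 log2). For Osm, Osmr and Lifr the DESeq2 adjusted p values were 0.0733, 0.0839 and 0.141, and the limma voom values 0.111, 0.0924 and 0.104. For Socs3 they were 0.159 and 0.146. Lif was thus the one gene of the 10 on the other side of the threshold with either tool.

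**Figure D3:**
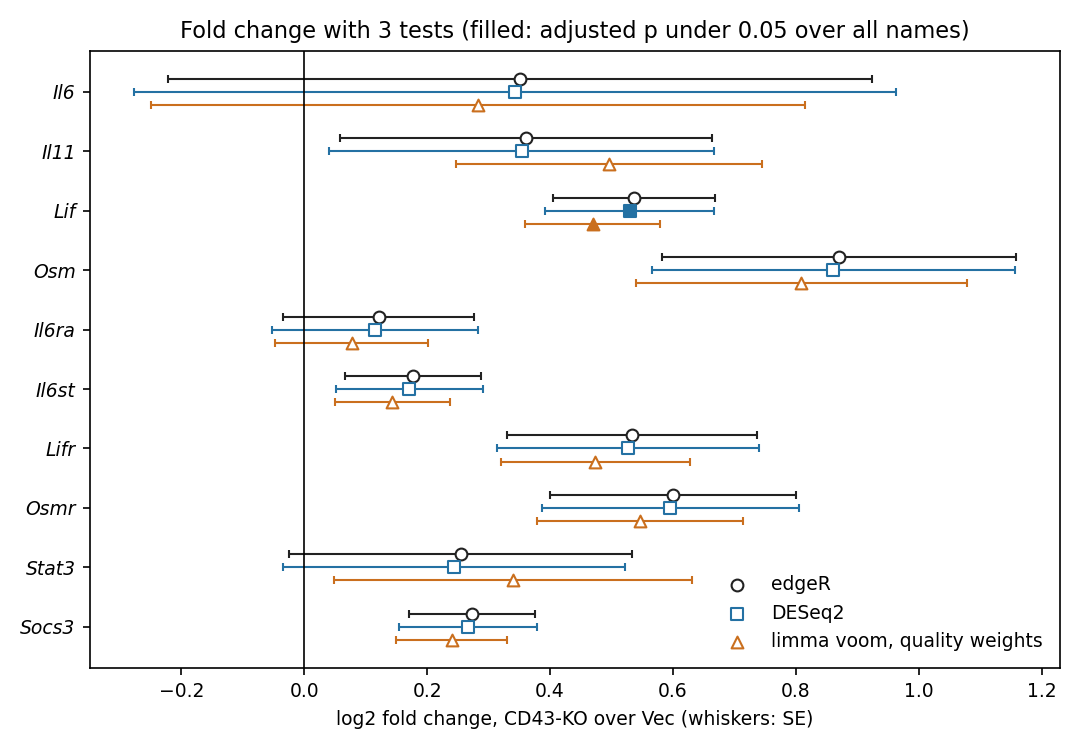
Log2 fold change of each gene (horizontal axis, CD43-KO over Vec) with its SE from edgeR, DESeq2 and limma voom with quality weights; filled symbols have an adjusted p under 0.05 over all names. The filled symbols are those of Lif with DESeq2 (0.53) and limma voom (0.47), and all 30 estimates lie above 0.

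Per kilobase of exon, the feedback inhibitor was the most abundant and Il6 the least. Exon lengths were those of protein-coding basic transcripts of GENCODE M21, which may differ from the annotation that was counted. In Vec tumours the mean was 36.0 CPM per kb for Socs3, 10.4 for Stat3, 7.67 for Il6st, 4.37 for Osmr and 2.24 for Lif. It was 1.74 CPM per kb for Il6ra, 1.38 for Osm, 1.22 for Il11, 0.630 for Lifr and 0.166 for Il6. Neighbours whose ranges overlapped were Stat3 and Il6st, Lif and Il6ra, Il6ra and Osm, and Osm and Il11. In CD43-KO tumours the means of Lif (3.25 CPM per kb) and Osm (2.53) were above those of Il6ra (1.89) and Il11 (1.56). There the range of Osm overlapped those of Lif, Il6ra and Il11, and the ranges of Il6ra and Il11 overlapped. Osmr was more abundant per kilobase than Lifr in both groups, at 6.62 against 0.913 CPM per kb in CD43-KO tumours.

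Ratios within a library do not depend on scaling, and 3 of them were tested by exact permutation of the group labels, two-sided. The smallest p that 126 ways to divide the tumours can give is 0.00794. The log2 ratio of Osmr to Lifr counts was 1.85 ± 0.22 (SD, n = 4) in Vec and 1.95 ± 0.25 (SD, n = 5) in CD43-KO tumours (exact p = 0.587). The difference between these partners of gp130, 0.09, was smaller than either SD, and it ran from 0.02 to 0.20 when a tumour was left out. For Osm over Osmr the log2 ratio was -2.90 ± 0.52 (SD, n = 4) and -2.73 ± 0.65 (SD, n = 5), with exact p = 0.667. For Socs3 over Stat3 it was 0.57 ± 0.53 (SD, n = 4) and 0.58 ± 0.40 (SD, n = 5), with exact p = 0.960. This last ratio ran from 0.07 to 1.13 among Vec tumours and from 0.18 to 1.03 among CD43-KO tumours, a spread far wider than the difference of 0.01 between the means.

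Other parts of the pathway were taken from 6 lists, in which edgeR called 0 genes. Of the other ligands, 6 of 8 were tested and all 6 had a log2 fold change above 0 (median 0.34, or 0.17 without CD43-KO replicate 3). The most abundant were Clcf1, a ligand of the CNTF receptor (12.6 ± 2.48 against 14.3 ± 1.37 CPM, Vec first), and Ebi3, a subunit of IL-27 (3.83 ± 0.95 against 5.06 ± 2.25 CPM). The smallest p values were those of Il27, the other IL-27 subunit (log2 fold change 1.12 ± 0.45 SE, edgeR adjusted p = 0.290), and Ctf1, which encodes cardiotrophin 1 (0.27 log2, edgeR adjusted p = 0.533). Ctf2 and Il31 were too low to test. Of the other receptors, 4 of 5 were tested, 2 above and 2 below 0, and their median ran from -0.14 without CD43-KO replicate 3 to 0.45 without Vec replicate 4. Il11ra1, the IL-11 receptor chain, averaged 61.2 ± 4.81 and 63.0 ± 21.8 CPM and is uncertain, since its near-identical copy Il11ra2 (0.598 ± 0.041 and 0.558 ± 0.17 CPM) could share reads. Il27ra, the IL-27 receptor, was at 1.69 ± 0.71 and 3.36 ± 1.99 CPM.

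Kinases, phosphatases, sheddases and inhibitors had 16 of 18 log2 fold changes above 0, with a median of 0.20, or 0.11 without Vec replicate 4. An unadjusted p under 0.05 was met by 5 of them, 4 higher and 1 lower (Pias3, -0.30, an inhibitor of STAT3). Over all names these shares were 54.0% and 15.4%. The main kinase gene Jak1 averaged 176 ± 20.04 CPM (Vec) against 171 ± 35.6 CPM (CD43-KO), and Ptpn11, a phosphatase recruited by gp130, 118 ± 9.36 against 132 ± 11.3 CPM. Socs2, a relative of Socs3 that restrains growth hormone signalling, was at 9.06, 8.94, 8.10 and 7.26 CPM in Vec replicates 1 to 4. In CD43-KO replicates 1 to 5 it was at 11.03, 16.5, 10.4, 12.9 and 16.2 CPM, above every Vec tumour. Its log2 fold change was 0.69 ± 0.17 (SE), with an edgeR adjusted p of 0.187 and a DESeq2 adjusted p of 0.0118. The kinase gene Tyk2 was at 25.9 ± 4.05 and 33.3 ± 4.57 CPM (edgeR adjusted p = 0.274). Of the 6 other STAT genes 4 lay above 0 (median 0.08, and 0.018 without Vec replicate 3 or 0.029 with limma voom). Stat6, which carries the interleukin 4 signal, averaged 130.3 ± 13.95 against 123 ± 10.2 CPM. Stat4, a lymphocyte STAT, had the smallest p (log2 fold change 1.13 ± 0.45 SE, edgeR adjusted p = 0.285).

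Known STAT3 target genes, 30 of 30 tested, showed a small and mixed difference. Of these 22 lay above and 8 below 0, with a median of 0.16 (0.11 without Vec replicate 3). An unadjusted p under 0.05 was met by 8, 7 higher and 1 lower (Lbp, -0.96, the gene of lipopolysaccharide binding protein), against 15.4% of all names in either direction and 7.75% higher. The 2 most abundant targets, the cyclin gene Ccnd1 and the survival gene Mcl1, averaged 904 ± 48.4 against 879.6 ± 57.6 CPM and 400.2 ± 25.99 against 407 ± 41.1 CPM. Il4ra, a chain of the IL-4 receptor, was at 73.5, 72.8, 78.0 and 71.7 CPM in Vec replicates 1 to 4 and at 107.6, 120.9, 141.8, 81.8 and 79.5 CPM in CD43-KO replicates 1 to 5. The groups did not overlap (log2 fold change 0.52 ± 0.17 SE, edgeR adjusted p = 0.232). Icam1, an adhesion molecule, was at 11.4 ± 2.07 and 26.2 ± 14.4 CPM (edgeR adjusted p = 0.246, DESeq2 adjusted p = 0.0403). CD43-KO replicates 1 to 3 were at 28.2, 34.3 and 44.8 CPM for Icam1, and replicates 4 and 5 at 13.2 and 10.7 CPM, near the Vec range of 8.46 to 12.9 CPM. The leukocyte sum was likewise above every Vec tumour in replicates 1 to 3 only. The other target that DESeq2 called, named after its value was seen, was Cd274, which encodes PD-L1 (DESeq2 adjusted p = 0.0472). Whether leukocyte content accounts for these values was not tested.

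Among these 6 lists the largest median was that of inducers of interleukin 6 family ligands, a list of cytokine, receptor and enzyme genes. It was 0.90, or 0.62 without CD43-KO replicate 3. Of its 10 genes 9 were tested, and 8 lay above 0, against 54.0% of all names. With all tumours in, medians of the cell marker lists ran from 0.08 (epithelial) to 1.57 (muscle), with 0.81 for leukocytes and 1.09 for T cells. The muscle sum was high in CD43-KO replicate 3 alone (1075 CPM against 70.1 to 114 CPM in the other tumours). Of the 9 muscle genes, 0 had an unadjusted edgeR p under 0.05. Marker list medians without CD43-KO replicate 3 were not computed. Whether cell content accounts for the inducer values was not tested. Il1a, the gene of interleukin 1 alpha, was at 1.80, 1.97, 3.15 and 2.22 CPM in Vec replicates 1 to 4 and at 5.47, 4.78, 6.57, 6.33 and 2.42 CPM in CD43-KO replicates 1 to 5. The log2 fold change of Il1a was 1.16 ± 0.30 (SE), with an edgeR adjusted p of 0.192 and a DESeq2 adjusted p of 0.0124. Ptgs2, the inducible enzyme of prostaglandin synthesis, was at 15.3, 15.1, 26.1 and 22.1 CPM and at 30.03, 30.4, 41.1, 56.1 and 27.2 CPM in the same order. Its groups did not overlap (log2 fold change 0.91 ± 0.25 SE, edgeR adjusted p = 0.196, DESeq2 adjusted p = 0.0212, limma voom adjusted p = 0.0484). The 2 most abundant genes of the list, Tnfrsf1a and Tgfb1, averaged 108 ± 7.65 against 104 ± 7.18 CPM and 104 ± 16.9 against 110.3 ± 14.96 CPM.

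**Figure D4:**
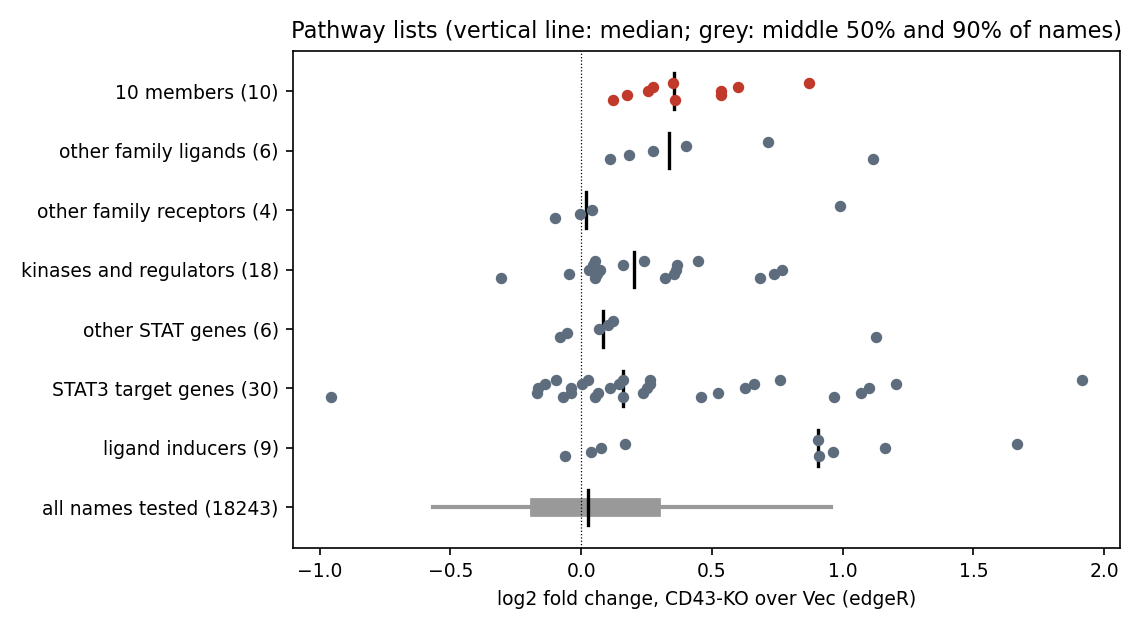
The log2 fold changes (horizontal axis, CD43-KO over Vec) of the 10 genes and of 6 pathway lists, 1 point per gene, with the number tested in brackets and the median as a vertical line; the grey bars span the middle 50% and 90% of all 18243 names. Medians are 0.36 for the 10 genes, 0.16 for STAT3 targets, 0.90 for ligand inducers and 0.03 for all names.

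Genes whose profile over the 9 tumours was most like that of a member were found by Pearson's r of log2 CPM, given as a description from 1 search over all names tested. For Osm they were Il1a (r = 0.98), Il1b (0.94) and Ier5 (0.92), so 2 of its 3 nearest profiles were interleukin 1 genes. Socs3 was nearest to Eomes (0.96), Arg2 (0.94) and Il1b (0.93), and thus shared Il1b with Osm. Il1b, the gene of interleukin 1 beta, was at 9.60, 12.1, 19.4 and 19.1 CPM in Vec replicates 1 to 4 and at 47.7, 44.4, 93.4, 41.5 and 11.7 CPM in CD43-KO replicates 1 to 5. As for Osm, CD43-KO replicate 5 was the 1 tumour of its group within the Vec range. Lif was nearest to Clmn (0.98), Slc43a3 (0.97) and Acvr1b (0.97), and Osmr to Larp4b (0.97), Zfp456 (0.96) and Zfp800 (0.96). Stat3 was nearest to Isoc1 (0.97), Tesk1 (0.96) and Slc2a6 (0.93), all with a log2 fold change smaller than its SE. Il11 was nearest to Akap3 (0.91), Neil3 (0.91) and Tada2b (0.90), and Il6, at few counts, to Mir5132 (0.92), Nectin3 (0.88) and Fyb2 (0.86). With 9 tumours of 2 groups and 18243 names, coefficients of this size describe likeness only.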

How the data were processed

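Bulk RNA of 9 tumours (4 Vec, 5 CD43-KO) was measured with NEBNext Ultra libraries from TRIzol-extracted RNA, per the labels' protocols. The authors deposited 1 table of whole-number counts per gene name for each library, not scaled to depth, per the file headers and values. HISAT2 2.1.0, StringTie 1.3.5, DESeq2 and GRCm38 stand in the submitters' processing notes without a role. How reads were counted, on which annotation and with which strand setting is not stated in the notes. A few names (26) had become dates and were tested as deposited.

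Counts were analysed in R 4.3.3. After filterByExpr (minimum count 10, minimum total 15) 18243 of 42454 names were tested with edgeR 4.0.16: TMM factors and the robust quasi-likelihood F test of group alone, with Benjamini-Hochberg adjustment over all names and a threshold of 0.05. Each edgeR SE is the absolute log2 fold change over the root of its F statistic. The DESeq2 SE is the one DESeq2 reports, and the limma voom SE is the log2 fold change over its t statistic. Levels are TMM-scaled CPM, as mean ± SD. DESeq2 1.42.0, limma 3.58.1 (voom with sample quality weights), 2 other scalings, 2 other filters and leaving out each tumour were alternatives. Ratios added 0.5 to each count. Profile likeness used log2 CPM with a prior count of 2. The code was tested on simulated data with known changes.

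The naming rule for a pathway list took genes past the threshold. Where a list had none, it took its 2 highest by mean CPM and its 2 lowest by p. For likeness the 3 nearest names were taken, skipping predicted, clone, pseudogene and copy names. The members and lists were chosen with earlier results of these data known. One gene that this rule would name is not reported here.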

Additional observations from a re-analysis of the deposited data

Results flagged for a closer look

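One value of the 26 sets of values examined (10 genes and 3 ratios, in each group) lay far from the rest of its group. Socs3 in CD43-KO replicate 5 was at 87.2 CPM, and its gap to the next tumour was 0.74 of the range of the group, above the critical value of 0.71 for 5 samples. Chance alone marks about 1 in 20 such groups. Without this tumour the log2 fold change of Socs3 was 0.35, with an edgeR adjusted p of 0.240.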

How the results depend on the processing

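Over all names, edgeR called 0 genes, DESeq2 612 and limma voom 562, and edgeR without a filter called 1. Leaving out a tumour gave between 0 and 29 calls, the highest without Vec replicate 3. Lif passed with DESeq2 (log2 fold change 0.53) and limma voom (0.47), and its log2 fold change ran from 0.43 to 0.61 when a tumour was left out. The log2 fold change of Il6 then ran from -0.17 to 0.71, negative only without CD43-KO replicate 4. The 9 other genes stayed above 0 in each alternative that tested them, and Il6 was not tested under the stricter filter. DESeq2 called 1 of 18 kinases and regulators, 2 of 30 STAT3 targets and 2 of 9 ligand inducers tested, against 3.35% of all names. Limma voom called 1 of the 9 ligand inducers, against 3.08% of all names. With a tumour left out, the difference in log2 ratio ran from -0.16 to 0.20 for Socs3 over Stat3, from -0.023 to 0.43 for Osm over Osmr and from 0.02 to 0.20 for Osmr over Lifr. The cause of these shifts was not tested. Lif and Osmr kept separate groups with both other scalings, an alternative chosen after seeing the data. Over all names, the share higher without overlap was 2.08% with TMM factors, 2.01% with RLE size factors and 3.05% with library totals alone. With RLE size factors the Osmr gap was only from 29.13 CPM (highest Vec) to 29.29 CPM (lowest CD43-KO). Scaling by library totals alone moved the median of all names from 0.03 to 0.11, and names at an unadjusted edgeR p under 0.05 from 1414 higher and 1392 lower to 2128 and 755. No paired analysis was possible because the groups share no replicate numbers in the labels. Il6 had only 7 to 67 counts, and its CV was 46.2% in Vec and 73.9% in CD43-KO tumours.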
